A study of Homo sapiens with 6 samples.

Results

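OSMR, IL7R and IL2RG encode cytokine receptor chains that signal through JAK kinases and STAT transcription factors. They were taken by name from the authors' deposited table of genes that differ between MKN28 cells with short hairpin RNA against VPS35 (shVPS35) and MKN28 cells with a control vector, and all 3 are among its 426 genes. MKN28 is an established human gastric cancer cell line, which cell line registries trace to the line MKN74. VPS35 forms the core of retromer, a complex on endosomes that returns membrane proteins to the trans-Golgi network and the cell surface. RNA-seq was done on 3 shVPS35 samples and 3 vector samples, called biological replicates in the series' design text. The labels name no added ligand, hairpin sequence or number of hairpins, and do not say whether the knockdown cells are 1 clone or a pool. The vector is not described as carrying a non-targeting hairpin, so effects of VPS35 loss and of hairpin expression cannot be told apart.

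Cytokine receptors of this family have no kinase activity of their own. Ligand binding brings receptor chains together, the JAK kinases bound to their cytoplasmic tails are activated, and the STAT factors they phosphorylate enter the nucleus. OSMR pairs with gp130 (IL6ST) to form the type II oncostatin M receptor and with IL31RA to form the receptor for IL31, and it is widely expressed in epithelial and stromal cells. IL7R is the alpha chain shared by the receptors for IL7, where it pairs with IL2RG, and for TSLP, where it pairs with CRLF2. IL2RG is the common gamma chain of the receptors for IL2, IL4, IL7, IL9, IL15 and IL21. IL7R and IL2RG are best known in lymphocytes, where STAT5 is a main target.

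The table holds, for each gene and sample, an expression value with 2 decimals, and its header names no unit. Levels are therefore mainly compared between samples for 1 gene. Where values of genes are summed, or genes are placed by level, the values are taken as deposited and their unit stays unknown. Read depth is unknown, and over the 426 genes the values summed to 4696 to 5004 in the shVPS35 samples and 5029 to 5130 in the vector samples. VPS35 itself was at 12.9, 15.6 and 11.8 in the shVPS35 samples, against 64.4, 64.3 and 67.2 in the vector samples, or 20.6% of the vector level.

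All 3 receptor genes lie on GRCh38 chromosomes 5 and X. OSMR (ENSG00000145623) occupies chromosome 5, 38845858 to 38945596 on the plus strand, and IL7R (ENSG00000168685) lies 2.97 Mb away at 35852695 to 35879603 on the same strand. Among the listed genes on the chromosome, each of the pair is the nearest to the other. The next nearest is PDZD2, a PDZ domain protein gene, which was at 0.707 ± 0.234 in shVPS35 cells and 1.60 ± 0.377 in vector cells (SD, n = 3 each). IL2RG (ENSG00000147168) is on chromosome X at 71107404 to 71112108 on the minus strand, and the nearest listed gene is 37.04 Mb away.

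The promoters of the 3 genes are shown because the genes were lower together, so that their sequences can be set side by side. Each runs from 250 bases before to 50 bases after the RefSeq start on GRCh38.p14, 5′ to 3′ on the gene's strand, and positions count from the start as base 1. The windows are chr5:38845762-38846061 (OSMR, plus strand), chr5:35856641-35856940 (IL7R, plus strand) and chrX:71111528-71111827 (IL2RG, minus strand). Capitals mark matches on either strand to any of 5 motifs, which were chosen with the sequences in view: TTCNNNGAA for STAT factors, TGANTCA for AP-1-like factors, CCGGAAG for ETS factors, TATAAA for the TATA box and TGTGGT for RUNX factors. No capitals overlap between motifs.
OSMR: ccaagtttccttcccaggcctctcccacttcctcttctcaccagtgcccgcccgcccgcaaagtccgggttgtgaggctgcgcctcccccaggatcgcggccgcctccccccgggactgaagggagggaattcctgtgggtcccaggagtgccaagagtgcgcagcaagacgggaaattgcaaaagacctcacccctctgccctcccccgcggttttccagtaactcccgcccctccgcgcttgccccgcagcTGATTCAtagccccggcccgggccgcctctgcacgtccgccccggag
IL7R: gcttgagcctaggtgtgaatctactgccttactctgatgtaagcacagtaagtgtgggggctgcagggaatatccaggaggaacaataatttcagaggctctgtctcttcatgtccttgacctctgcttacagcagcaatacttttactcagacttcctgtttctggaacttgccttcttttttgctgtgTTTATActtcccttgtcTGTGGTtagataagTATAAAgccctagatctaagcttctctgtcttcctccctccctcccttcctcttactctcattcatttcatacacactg
IL2RG: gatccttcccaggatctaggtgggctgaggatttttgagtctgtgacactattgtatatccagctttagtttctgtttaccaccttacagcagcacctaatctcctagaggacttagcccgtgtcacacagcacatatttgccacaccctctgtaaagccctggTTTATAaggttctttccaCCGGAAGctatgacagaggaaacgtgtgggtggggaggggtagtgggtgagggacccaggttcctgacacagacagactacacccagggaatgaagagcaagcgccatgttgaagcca

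Of these motifs, only the TATA box had matches in more than 1 window, those of IL7R and IL2RG. The STAT motif was in none of the 3 windows, and it is in 7.66% of the 35116 RefSeq promoter windows of this length. The OSMR window held 1 AP-1-like match at bases 4 to 10 after the start, a motif found in 7.71% of all windows. The IL7R window held a TATA box on the gene's strand at bases -29 to -24, another on the opposite strand at -60 to -55, and a RUNX match at -43 to -38. The TATA box is in 11.5% of all windows and the RUNX motif in 13.1%. IL2RG had an ETS match at -68 to -62, present in 10.3% of all windows, and a TATA box on the opposite strand at -86 to -81. Base composition differed between the windows. The OSMR window was 67.7% G and C with 23 CpG pairs, the IL7R window 44.3% with 0 and the IL2RG window 50.3% with 4, beside medians of 58.7% and 14 over all windows. A match describes the sequence and shows no binding.

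All 3 receptor genes were lower in shVPS35 cells. OSMR fell to 56.5% of the vector level, and IL7R and IL2RG, which are at very low values in both groups, to 12.9% and 13.9%. Of the 16063 genes tested, 1.47% are listed as lower and 2.65% as changed in the authors' deposited table, and the 3 members were picked from that list, so their being listed is no result about them. In each of the 3 genes every shVPS35 sample lay below every vector sample, as in 50.9% of the listed genes (93.4% in either direction). In these bulk samples fewer cells that express a gene and less RNA per cell cannot be told apart.

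OSMR, the oncostatin M receptor chain, had values of 38.0, 43.9 and 40.9 in the shVPS35 samples, against 72.5, 72.0 and 72.6 in the vector samples. The vector samples were nearly identical, the shVPS35 samples spread more, and the highest shVPS35 value was 28.2 below the lowest vector value. The mean was 40.9 ± 2.96 in shVPS35 cells and 72.4 ± 0.280 in vector cells (SD, n = 3 each), with coefficients of variation of 7.23% and 0.387%. After adding 1 and taking log2, OSMR differed by -0.81 ± 0.06 (SE, 95% interval -0.94 to -0.68; limma adjusted p = 3.3e-06 over 292 genes). In that test 54.8% of the genes were called lower, and none of the 292 missed the threshold of 0.05. The authors had called every one of these genes from the same samples, so the test is no independent evidence. The exact permutation test of 3 against 3 samples gave p = 0.1, the smallest 2-sided value it allows.

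OSMR combines one of the smallest fold changes in the table with one of the smallest p-values. The authors' deposited table gives it a log2 fold change of -1.01, just past their limit of 1 in size, and 6 of the 236 genes listed as lower have a smaller one. By p-value OSMR ranks 20 of the 426 listed genes and 24 of all 16063 tested (p = 1.3e-124 in the authors' deposited table). The group means give a smaller change, 1.77-fold lower in shVPS35 cells, or -0.82 on the log2 scale. The gap between the authors' log2 fold change and that of the means was -0.19. This is larger than for most of the 80 listed genes with both means of 5 or more, which range widely in level. Their median gap was -0.03, and 10 of the 80, OSMR included, were as far from 0. By the ratio of means, 9 of these 80 genes, OSMR among them, changed by less than 2-fold. GENCODE 29 gives OSMR 5 transcripts, 3 of them protein coding, and 229 of its 7174 exon bases are shared with RICTOR on the opposite strand.

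**Figure D1:**
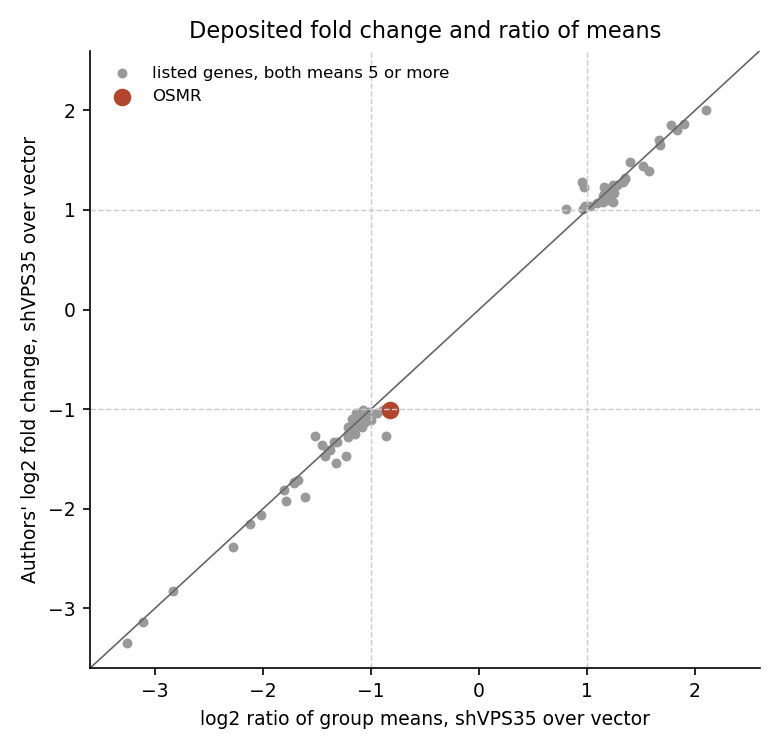
Authors' log2 fold change of shVPS35 over vector against the log2 ratio of the 2 group means, for the 80 listed genes with both means of 5 or more. Dashed lines mark a log2 change of 1 in size and the solid line equality. OSMR lies below the line, at -0.82 by the means and -1.01 in the authors' deposited table.

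IL7R, the chain shared by the IL7 and TSLP receptors, had values of 0.050, 0.19 and 0 in the shVPS35 samples, against 0.52, 0.83 and 0.51 in the vector samples. All 6 values are below 1, and shVPS35 sample 3 lists the gene at 0. The groups did not overlap, with 0.32 between the highest shVPS35 and the lowest vector value. The mean was 0.080 ± 0.098 in shVPS35 cells and 0.62 ± 0.18 in vector cells (SD, n = 3 each). IL7R had fewer than 3 samples at 1 or more, the filter on low values, and so was not in the main test. With no filter its log2(value + 1) difference was -0.58 ± 0.11 (SE, limma adjusted p = 0.0014). That fit called 52.8% of 426 genes lower and 43% higher. The authors had listed all of them from the same samples, so it is no independent evidence either. The authors' deposited table gives IL7R a log2 fold change of -3.27 with an adjusted p of 1.1e-06, and the ratio of means gives -2.95.

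IL2RG, the common gamma chain, was at 0.19, 0.20 and 0 in the shVPS35 samples, against 1.01, 0.53 and 1.27 in the vector samples. Vector sample 2 was the lowest of its group and still 0.33 above the highest shVPS35 sample. The mean was 0.13 ± 0.11 in shVPS35 cells and 0.94 ± 0.38 in vector cells (SD, n = 3 each). IL2RG also missed the filter, and without it the log2(value + 1) difference was -0.76 ± 0.16 (SE, limma adjusted p = 0.0026). This was the same fit as for IL7R, which called 52.8% of 426 genes lower and 43% higher. The log2 fold change was -2.65 in the authors' deposited table (adjusted p = 0.0072) and -2.85 by the ratio of means. In GENCODE 29, 1403 of the 2760 exon bases of IL2RG (50.8%) also belong to AL590764.2, a protein coding gene on the same strand, so the split of reads between the genes is uncertain. For IL7R and IL2RG, 3 samples a group again gave an exact permutation p of 0.1.

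**Figure D2:**
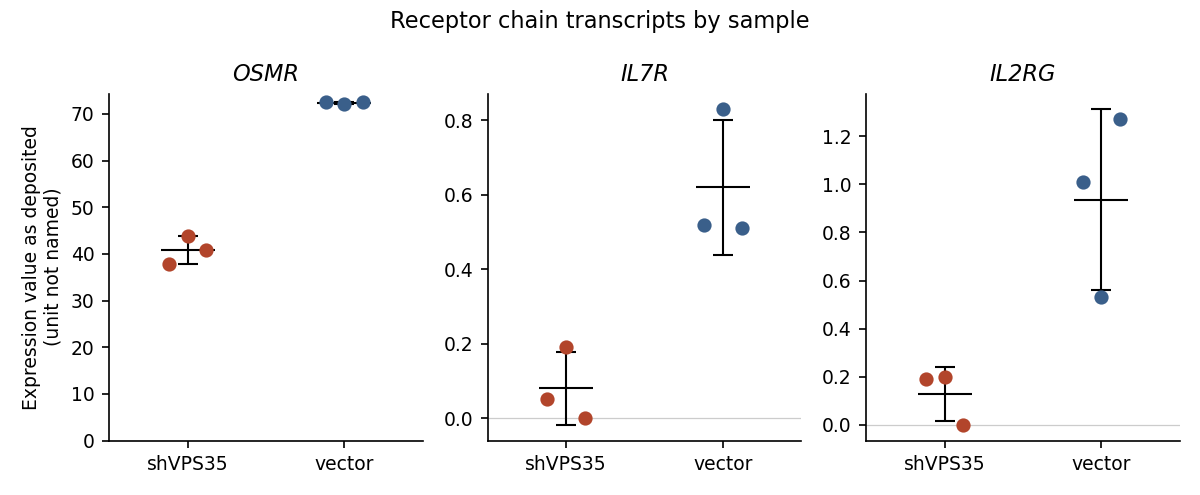
Deposited expression values of OSMR, IL7R and IL2RG in the 3 shVPS35 and 3 vector samples. Points are samples, and bars the mean ± SD. In each gene all shVPS35 samples lie below all vector samples, and in IL7R and IL2RG 1 shVPS35 sample is listed at 0.

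The low level of IL7R and IL2RG sets how far their change can be compared with that of OSMR. As a share of the vector level, less IL7R (12.9%) and IL2RG (13.9%) remained than OSMR (56.5%). The log2 ratio of 2 members was taken within each sample, on value + 1, and compared between groups for all 3 pairs. It differed by 0.23 for IL7R over OSMR (exact permutation p = 0.2, adjusted over 3 pairs 0.6), by 0.05 for IL2RG over OSMR (p = 1, adjusted 1) and by -0.18 for IL2RG over IL7R (p = 0.6, adjusted 0.9). The last was -0.43 without vector sample 2 and -0.01 without vector sample 3. None passed, and none could, since the smallest possible exact p is 0.1. With a pseudocount of 0.1 the first and second took the opposite sign (-1.29 and -1.44, exact p = 0.1 each), so the order of the members by size of change depends on the pseudocount.

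**Figure D3:**
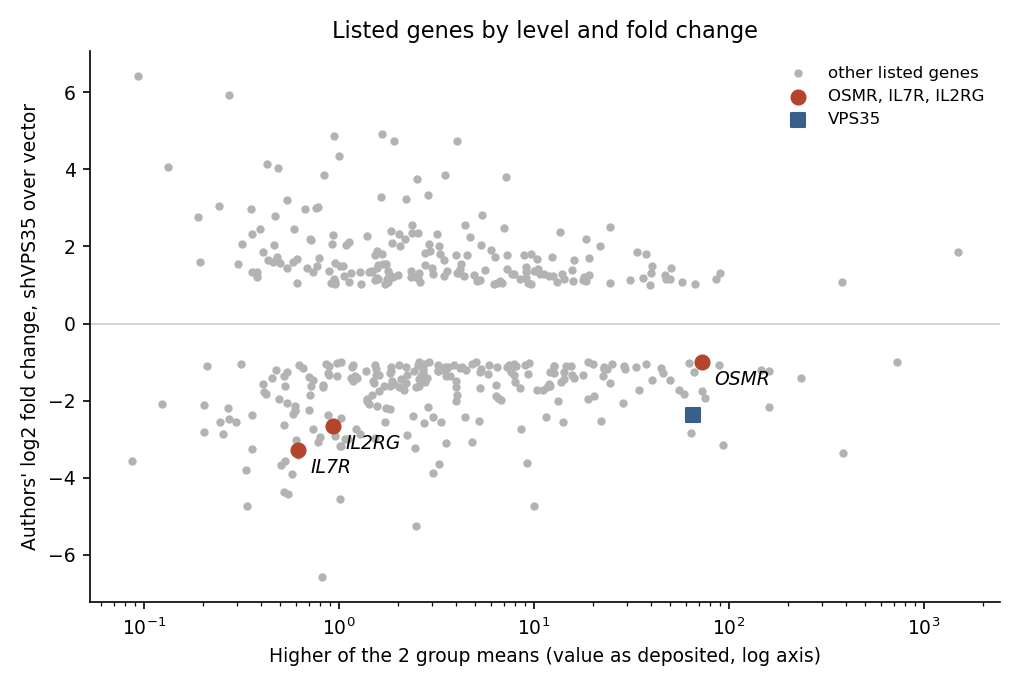
Authors' log2 fold change of shVPS35 over vector against the higher of the 2 group means (log axis) for the 426 listed genes. OSMR, at a mean of 72.4, lies at the edge of the listed range near -1, while IL7R and IL2RG lie at low deposited values, whose unit is not named, with changes of -3.27 and -2.65.

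Of 42 receptor chains that pair with JAK kinases, OSMR, IL7R and IL2RG were the only ones listed (7.14%, beside 2.65% of all genes tested). They were picked from the table for being on it, so this share is a description. The 39 not listed include IL6ST and IL31RA, the partners of OSMR, CRLF2, the partner of IL7R for TSLP, and IL2RA, IL2RB, IL4R, IL9R, IL15RA and IL21R, which join IL2RG. Genes outside the table either did not meet the authors' limits or were not in their test, and their values are not analysed here. None of the 11 JAK kinases and STAT factors was listed.

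Of 18 genes for ligands of these receptors and of the gp130 family, 3 were listed (16.7%, beside 2.65% of all genes tested), EBI3 and CNTF lower and TSLP higher. The list was chosen with earlier results of these data known and may hold genes outside the authors' test, so this share is a description. TSLP is the 1 of the 3 listed ligands whose receptor holds a chain described here. TSLP, an epithelial cytokine that signals through IL7R and CRLF2, was at 1.31, 1.02 and 1.04 in the shVPS35 samples, against 0.55, 0.54 and 0.47 in the vector samples. It rose to 216% of the vector level while its receptor chain IL7R was at 12.9%. Its log2 difference on value + 1 was 0.48 ± 0.09 (SE; limma adjusted p = 0.0011, in a fit that called 45.2% of 292 genes higher). TSLP met the filter on low values only through its shVPS35 samples, so this p-value is no independent support for a rise. With no filter its limma adjusted p was 0.0028, in a fit that called 43% of 426 genes higher and 52.8% lower. TSLP and IL7R both stayed at values below 1.5 in every sample.

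EBI3, the subunit shared by IL27 and IL35, was at 1.63, 1.52 and 1.51 in the shVPS35 samples, against 9.69, 7.19 and 8.86 in the vector samples. It fell to 18.1% of the vector level (-1.90 ± 0.13, SE; limma adjusted p = 2.9e-06). IL27 acts through IL27RA and gp130, the chain that OSMR also uses, and neither was listed. CNTF, a ligand of the gp130 and LIFR complex, was at 0.24, 0 and 0 in the shVPS35 samples, against 0.26, 0.59 and 0.72 in the vector samples. Its groups were separated by only 0.020, and it was too low for the main test. With no filter its limma adjusted p was 0.0102, in a fit that called 52.8% of 426 genes lower and 43% higher. Of the 1894 exon bases of CNTF, 732 belong also to the readthrough gene ZFP91-CNTF.

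SOCS2 was the 1 listed gene among 17 inhibitors of JAK and STAT signalling (5.88%, beside 2.65% of all genes tested). This list too was chosen with earlier results of these data known, so the share is a description. SOCS2 is induced by STAT5 and acts on receptors such as that for growth hormone. SOCS2 was at 1.39, 0.58 and 1.21 in the shVPS35 samples, against 4.68, 3.80 and 3.66 in the vector samples. It fell to 26.2% of the vector level (-1.31 ± 0.18, SE; limma adjusted p = 1.4e-04). SOCS1, SOCS3 and CISH, feedback inhibitors of the same family, were not listed.

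Of 32 genes that textbook accounts give as induced by STAT3 or STAT5, CCND1 and OSMR itself were listed, and both fell. The share was 6.25%, beside 2.65% of all genes tested. It is a description, since OSMR was picked from the listed genes and the list was chosen with earlier results known. SOCS2 is not on this list, though it too is known as a STAT5 target. CCND1, which encodes cyclin D1, was at 17.1, 17.2 and 16.3 in the shVPS35 samples, against 60.2, 59.4 and 57.5 in the vector samples. It fell to 28.6% of the vector level (-1.75 ± 0.05, SE; limma adjusted p = 3.9e-08). The other 30, among them SOCS3, PIM1, BCL3, JUNB and MYC, were not listed. CCND1 is also induced by other pathways, and 55.4% of all listed genes are lower.

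**Figure D4:**
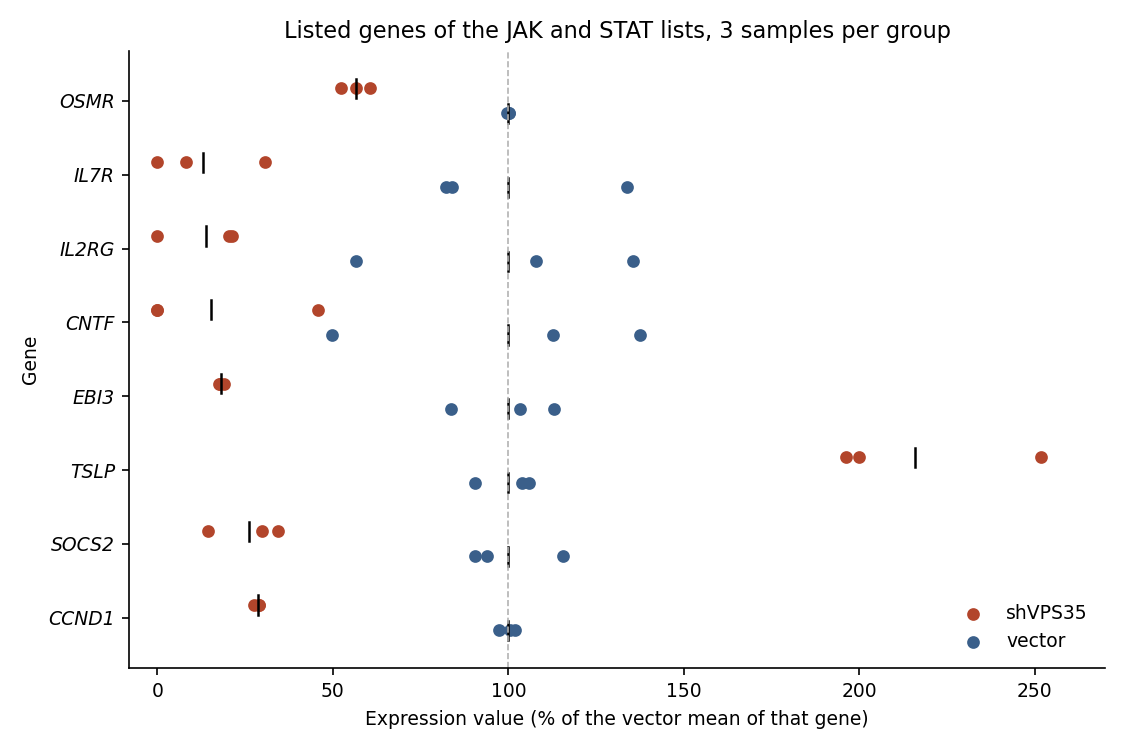
Values of 8 listed genes from the receptor, ligand, inhibitor and target lists in each sample, as a percentage of that gene's vector mean (dashed line). Points are the 3 shVPS35 and 3 vector samples, and ticks the group means. TSLP alone of the 8 lies above its vector samples, and the shVPS35 samples of CNTF reach 0.24 in value, against 0.26 in its lowest vector sample.

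IL7R and IL2RG are best known in lymphocytes, so markers of lymphocytes and other cell types were counted. All samples are labelled as the cell line MKN28. None of 12 T and NK cell markers, 4 B cell markers or 4 general leukocyte markers was listed, and their values are not analysed here. Of all 43 markers 4 were listed (9.30%, beside 2.65% of all genes tested), CD68 of macrophages, DCN and LUM of fibroblasts and CDH5 of endothelium. Their summed value was 20.8 to 24.2 in the shVPS35 samples, against 58.0 to 61.3 in the vector samples. Most of that sum was CD68 in both groups, and the 4 markers did not move together. CD68, also a lysosomal glycoprotein, was at 16.9 ± 0.369 in shVPS35 cells and 55.6 ± 1.33 in vector cells (SD, n = 3 each). DCN rose, to 4.19 ± 1.22 in shVPS35 cells, against 1.48 ± 0.485 in vector cells (limma adjusted p = 0.0014). LUM, at 0.56 ± 0.37 in shVPS35 cells and 1.17 ± 0.43 in vector cells, had overlapping groups. The part of these markers in the fall of IL7R and IL2RG was not tested. None of the 5 epithelial markers was listed, so the labelled cell type cannot be checked with these values.

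The listed genes most like each receptor were taken by the root mean square distance between profiles of log2(value + 1) over the 6 samples. Each profile was set to its own vector mean. Only listed genes with a group mean of at least 1 were compared, 315 for OSMR and 316 for IL7R and IL2RG. For OSMR these were F2R, a thrombin receptor gene, FAM167A, and SLIT2, which encodes a guidance ligand, at distances of 0.07, 0.08 and 0.08. F2R was at 2.79 ± 0.270 in shVPS35 cells and 5.88 ± 0.383 in vector cells (SD, n = 3 each). As a share of the vector level, F2R was at 47.4%, FAM167A at 12.5% and SLIT2 at 26.6%, beside 56.5% for OSMR. The vector means of FAM167A and SLIT2 were 1.02 and 1.39, against 72.4 for OSMR. IL7R was nearest to ADAM21, a metalloprotease gene, GBP3, a guanylate binding protein gene, and LINC01271, at 0.09, 0.09 and 0.10. For IL2RG the nearest were the antisense RNA AC080023.1 and PDZD2, at 0.12 and 0.14. Because of the added 1, genes of different level and fold can be near each other on this scale.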

How the data were processed

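RNA-seq was done on 3 shVPS35 and 3 vector samples of MKN28 cells, grouped by sample title. Per the submitters' processing notes, GRCh38.p13 was the build and fastp, HISAT and RSEM were used, with no roles or versions given. The deposited signal per gene and sample is the authors' normalized expression, with no unit in the header. The fold change as a ratio, its log2 and the p-values and adjusted p-values are the authors', per the file headers, and the sources used here do not name their test. The number of genes they tested, 16063, was recovered from p and adjusted p, with a whole rank within 0.01 for 387 of 422 genes.

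Values were tested as log2(value + 1) with limma 3.58.1 (trend and robust estimates, R 4.3.3, statmod 1.5.0), for genes that reached 1 in 3 or more samples. Group was the 1 term, with Benjamini-Hochberg adjustment over 292 genes at 0.05. The fit was checked on simulated data. Fold changes on this scale understate those of low genes. Exact permutation tests used scipy 1.17.1, with Python 3.11.15. Positions are from GENCODE 29 and promoters from RefSeq. No batch is given in the labels. Depth is unknown, so no counting interval was possible. The genes named are the 3 members, VPS35, listed members of the gene lists and the 3 nearest profiles per member; PDZD2 stands also as a neighbour on the chromosome. A gene that the rule would name is not reported here. Members and lists were chosen with earlier results of these data known. Alternatives were pseudocounts of 0.1 and 5, filters of none and 5, 2 scalings, plain variance estimates, a replicate block and leaving out each sample.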

Additional observations from a re-analysis of the deposited data

How the results depend on the processing

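OSMR and VPS35 kept their direction and an adjusted p under 0.05 in limma under every alternative run. Every gene in these and the other fits below was listed by the authors from the same samples. A pass is therefore no independent evidence, and in the main fit none of the 292 genes tested missed the threshold. OSMR ranged from -0.86 to -0.76 on the log2 scale when samples were left out in turn, and was -0.72 with median centring. The log2(value + pseudocount) difference of IL7R was -2.11 with 0.1 and -0.15 with 5, and that of IL2RG -2.26 and -0.21. With no filter both passed (IL7R -0.58, IL2RG -0.76), in a fit that called 52.8% of 426 genes lower and 43% higher. In fits added after the data were seen, both also passed with a pseudocount of 0.1 (-2.11 and -2.26). They passed too with each sample left out (IL7R -0.65 to -0.49, IL2RG -0.92 to -0.64, largest limma adjusted p 0.0102). A filter of 5 leaves out both and called 78 genes lower and 62 higher of 141 tested, against 160 and 132 of 292. Leaving out samples gave 119 to 155 lower and 94 to 131 higher, among 255 or 256 genes tested. The filter still asked for 3 samples, so genes reaching 1 only in the reduced group were not tested. Lower calls were 119 to 121 without a vector sample, and higher calls 94 or 95 without an shVPS35 sample.

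IL7R over OSMR was -1.29 with a pseudocount of 0.1 and 0.61 with 5, and IL2RG over OSMR -1.44 and 0.55. Without shVPS35 sample 1 or vector sample 2, IL2RG over OSMR was -0.04 and -0.11, in a range of -0.11 to 0.17. IL2RG over IL7R kept its sign, from -0.43 without vector sample 2 to -0.01 without vector sample 3.

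Same-numbered samples did not deviate together (correlations of deviations -0.06, -0.09 and 0.03 over 292 genes), so the numbers were not taken as pairs. With the replicate block, OSMR was at -0.81 (limma adjusted p = 7.4e-05), and with no filter IL7R at -0.58 (adjusted p = 0.0014) and IL2RG at -0.76 (adjusted p = 0.0092). The block changed no call of a member, and with the filter it called 159 genes lower and 132 higher of 292. Depth is unknown, and the values of 0 in IL7R and IL2RG do not show absence of the transcript.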
